A study of Danio rerio with 17 samples.

Results

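The brains of adult zebrafish that had received domoic acid (DA) 48 h earlier were compared with the brains of fish that had received vehicle alone and were collected at the same time. The comparison rests on the 5 of 17 arrays that the titles place at 48 h, 3 of DA brains and 2 of control brains, so one side has a single pair of arrays. DA fish were wild type fish of the AB strain, 1 year old at exposure, injected into the body cavity with 1.1 ± 0.2 µg of DA per g of body weight, a dose that the labels class as symptomatic. Control fish were of the same strain and age and were injected with phosphate-buffered saline. Each array carried biotin-labelled RNA pooled from 3 to 4 whole brains, so the spread between arrays is that between pools, and single animals cannot be followed. The other 12 arrays, 3 of DA and 3 of control brains at each of 24 h and 168 h, enter here through the shared estimate of spread and as further control arrays. All levels below are log2 expression values of Affymetrix Zebrafish Genome probe sets, and all differences are DA minus control on the log2 scale unless a fold is named.

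DA is an amino acid made by marine diatoms that mimics glutamate and opens ionotropic glutamate receptors of the kainate and AMPA classes, with calcium entry and seizures as the known acute effects. Brain tissue meets most of its energy need through mitochondrial respiration, and fatty acid oxidation in brain is known mainly from glia. Hours to days after strong excitation, immediate early genes, stress hormone targets and microglial genes are the groups most often followed in brain tissue.

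The arrays carried the signal of brain. The neuronal gene snap25a, which encodes a protein of synaptic vesicle fusion, read 13.20, 12.88 and 13.02 on the DA arrays, against 13.42 and 13.21 on the control arrays. Blank probe sets, designed against no transcript of the fish, had mean levels of 4.96 to 5.04 on the DA arrays and 5.07 and 5.05 on the control arrays. Control replicate 1 stood apart from the other 4 arrays. Its correlation with the DA arrays was 0.991, against 0.995 to 0.996 for control replicate 2, and the DA arrays correlated with each other at 0.996 to 0.997. The median gap of a probe set was 0.14 between the controls, 0.10 between any pair of DA arrays, 0.14 to 0.15 between a DA array and control replicate 1, and 0.11 to 0.12 between a DA array and control replicate 2. Hybridisation spike-ins, added in fixed amounts, averaged 9.27, 9.40 and 9.37 on the DA arrays, against 10.8 and 9.70 on the control arrays. The part that this offset and control replicate 1 play in the results was not tested beyond the values given below without that array or with spike-in signal as a covariate. Among the arrays of other times, DA replicate 1 of 24 h had the highest blank mean, 5.74, against 4.94 to 5.18 on all the others. In the fit with array weights it had the lowest weight, 0.14. It entered the shared estimate of spread and every 24 h value below, and its part in the 24 h values was not tested.

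None of 15502 probe sets differed between DA and control brains at 48 h at an adjusted p under 0.05 (limma, Benjamini-Hochberg over all probe sets), which is 0.0% called, and the smallest adjusted p was 0.335. At an unadjusted p under 0.05, 405 probe sets (2.61%) were higher in DA brains and 329 (2.12%) were lower. Together these were 734 probe sets, or 4.73%. That share was 11.1% in a fit of the 48 h arrays alone, 8.87% with array weights, 7.84% without control replicate 2 and 1.55% without control replicate 1. Differences were small: 9 probe sets were at least 2-fold higher and 15 at least 2-fold lower in DA brains. Of 8793 genes, each read by its brightest probe set, 320 were higher (3.64%) and 164 lower (1.87%) by that same threshold. On 1385 genes (15.8%) every DA array lay above both control arrays, and on 1059 (12.0%) every DA array lay below both. The mean difference was above 0 for 4853 genes (55.2%) and below 0 for 3940 (44.8%), with a median of 0.02. Without control replicate 1 the probe sets at an unadjusted p under 0.05 numbered 124 higher and 117 lower, and without control replicate 2 they numbered 691 and 525. The values that follow are therefore described gene by gene, and no difference is called unless a test is named as passed. For 71 of 205 genes examined by name the difference shrank by over 1.5 times, or turned, without control replicate 1.

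hadhb, the beta subunit of the mitochondrial trifunctional protein that carries out the last steps of fatty acid oxidation, had the smallest p of all higher genes. Its log2 values were 9.53, 9.37 and 9.35 in DA brains, against 8.68 and 8.94 in control brains, a 1.52-fold difference (log2 0.60 ± 0.12 SE, adjusted p = 0.396, limma). All 3 DA arrays also lay above the 6 control arrays of 24 h and 168 h, which ran from 8.72 to 8.99. slc1a4, a transporter of alanine, serine and other neutral amino acids, read 9.25, 8.93 and 8.98 in DA brains and 8.15 and 8.47 in control brains (log2 0.74 ± 0.16 SE, adjusted p = 0.501). Here the DA arrays lay largely within the range of the controls of other times, 8.61 to 9.09, and both 48 h controls lay below that range. slc25a4, the carrier that exchanges ADP and ATP across the inner mitochondrial membrane, read 7.72, 7.79 and 7.81 in DA brains and 6.73 and 7.14 in control brains (log2 0.84 ± 0.21 SE, adjusted p = 0.623).

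bzw2, a regulator of translation start, read 7.92, 7.67 and 7.65 in DA brains and 6.96 and 7.15 in control brains (log2 0.69 ± 0.14 SE, adjusted p = 0.396). blcap read 10.12, 10.11 and 10.00 in DA brains and 9.47 and 9.45 in control brains (log2 0.61 ± 0.12 SE, adjusted p = 0.396). Both stood above all 8 control arrays of the series. ift52, a part of the transport complex of cilia, was at 0.44, golt1bb of the Golgi at 0.57, the lamin gene lmnl3 at 0.42 and atp6v1c1b, a subunit of the proton pump of lysosomes and synaptic vesicles, at 0.39. For these 4 the DA arrays stood above both 48 h controls, and for ift52, golt1bb and lmnl3 they overlapped the controls of other times.

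On the lower side the smallest p belonged to cox4i1l, which encodes a form of subunit IV of cytochrome c oxidase, and to egln3, a prolyl hydroxylase that marks hypoxia-inducible factors for degradation and is itself induced when oxygen is low. Both are described with the oxygen-responsive genes. tns1b, a tensin that links actin to cell-matrix contacts, read 7.22, 6.96 and 7.04 in DA brains, against 7.56 and 7.54 in control brains (log2 -0.48 ± 0.10 SE, adjusted p = 0.501). Its controls were close together at every time, with the other 6 between 7.54 and 7.79, and the 3 DA arrays lay below all 8. A second, dim probe set of tns1b was at -0.08. cul5b, a cullin scaffold of ubiquitin ligases, read 5.74, 5.14 and 5.71 in DA brains and 6.60 and 6.38 in control brains (log2 -0.96 ± 0.21 SE, adjusted p = 0.529). hic1l, a relative of the transcriptional repressor HIC1, was at -0.49, and ythdf2, which binds methylated messenger RNA and speeds its decay, was at -0.61. For cul5b and hic1l the DA arrays lay below all 8 controls, and for ythdf2 they overlapped the controls of other times.

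**Figure D1:**
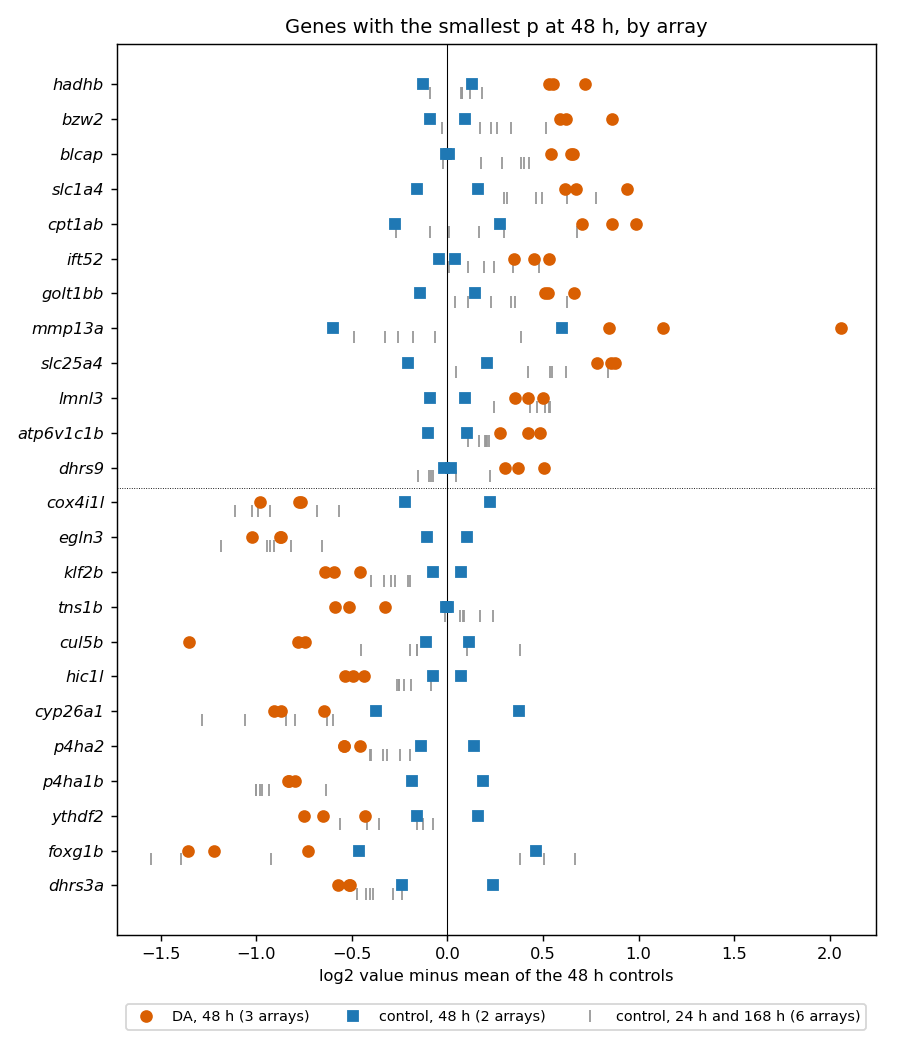
Each line is a gene, 12 higher and 12 lower in DA brains, ranked by unadjusted p among those whose DA and control arrays did not overlap at 48 h; the horizontal axis is the log2 value minus the mean of the 48 h controls, with DA arrays as circles, 48 h controls as squares and controls of 24 h and 168 h as ticks. For hadhb and tns1b the DA arrays stood apart from every control, while for cox4i1l, egln3 and p4ha1b they lay among the controls of other times and the 48 h controls stood apart.

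Mitochondrial fatty acid oxidation was the list with the largest number of genes higher in DA brains at an unadjusted p under 0.05. Its steps are the carnitine shuttle, which brings fatty acids into the mitochondrion, the 4-step oxidation spiral, and the electron transfer flavoproteins that pass the electrons on. Of 39 genes measured, 28 were higher and 11 lower in DA brains, with a median of 0.18 against 0.02 for all genes. By that threshold 13 were higher and 1 was lower, beside 3.64% and 1.87% of all genes. On 20 every DA array lay above both 48 h controls, and on 13 every DA array lay above all 8 controls of the series, beside 15.8% and 3.66% of all genes. None of the 39 passed at an adjusted p under 0.05.

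In the carnitine shuttle, cpt1ab, the transferase that sets the rate of entry, read 6.78, 6.65 and 6.49 in DA brains, against 5.52 and 6.06 in control brains, a 1.80-fold difference (log2 0.85 ± 0.19 SE, adjusted p = 0.529, limma). The difference was 0.58 without control replicate 1 and 0.38 with spike-in signal as a covariate. slc25a20, the carnitine-acylcarnitine carrier, read 9.33, 9.44 and 9.30 in DA brains and 8.95 and 8.96 in control brains (log2 0.41). cpt2, the transferase of the inner membrane, read 8.89, 8.90 and 8.95 in DA brains and 8.26 and 8.66 in control brains (log2 0.45, adjusted p = 0.726). All 3 steps of the shuttle thus read higher on every DA array than on either control, and the DA arrays also lay above the controls of the other times. A second, dim probe set of cpt2 was at 0.01.

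In the spiral, the medium-chain dehydrogenase acadm read 11.21, 10.92 and 11.01 in DA brains and 10.40 and 10.78 in control brains (log2 0.45). The hydratase echs1 was at 0.38, the hydroxyacyl dehydrogenase hadh at 0.42, the thiolase acaa2 at 0.38 and eci1, the isomerase needed for unsaturated fatty acids, at 0.44. Each of these was higher on every DA array than on both 48 h controls, and hadh alone among them overlapped the controls of other times. Not every gene of the spiral moved: acadvl was at 0.13, hsd17b10 at 0.08 and acat1 at 0.05, with overlapping arrays. The electron transfer genes etfdh and etfb were at 0.34 and 0.30, both above all 8 controls. etfa, the other electron transfer gene of the list, was at 0.02 with overlapping arrays. etfdh read 6.91, 6.93 and 6.90 in DA brains, against 6.57 and 6.58 in control brains. ucp2, an uncoupling protein of the inner membrane kept on the same list, was the lower member at an unadjusted p under 0.05. It read 8.88, 8.17 and 8.55 in DA brains and 9.23 and 9.22 in control brains (log2 -0.70 ± 0.25 SE, adjusted p = 0.925). The ucp2 values of both groups lay within the range of the other controls, 8.32 to 9.72, but for DA replicate 2. The level of the list, as the median over its genes of the deviation from the mean of all 17 arrays, was 0.17, 0.13 and 0.20 in DA brains, against -0.00 and 0.03 in 48 h controls and -0.07 to 0.03 in the other controls. The list median was 0.14 without control replicate 1 and 0.15 with the spike-in covariate.

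The same direction held through the citric acid cycle and the respiratory chain. Of 28 genes listed for the citric acid cycle and pyruvate dehydrogenase, 24 were higher in DA brains, with a median of 0.15 with or without control replicate 1. An unadjusted p under 0.05 was found for 5 higher ones and no lower one, beside 3.64% and 1.87% of all genes. idh1, the cytosolic isocitrate dehydrogenase that supplies NADPH, read 9.76, 9.82 and 9.47 in DA brains and 8.90 and 9.32 in control brains (log2 0.57 ± 0.17 SE, adjusted p = 0.783). mdh2, malate dehydrogenase, was at 0.45, and sdhc, a membrane subunit of succinate dehydrogenase, at 0.35, both above all 8 controls. The list held idh1 although that enzyme is cytosolic, and sdhc is counted again with complexes II and III below.

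Of 31 complex I genes, 29 were higher in DA brains, with a median of 0.21. An unadjusted p under 0.05 was found for 5 higher and 1 lower ones. Beside each list of this paragraph, 3.64% of all genes were higher and 1.87% lower at that threshold, and 55.2% had a higher mean. All 12 genes of complexes II and III and cytochrome c were higher, 5 of them at that threshold, with a median of 0.26. All 18 ATP synthase genes were higher, 3 of them at that threshold, with a median of 0.23. The complex IV list had 13 of 14 higher, none of these at that threshold, and cox4i1l lower at that threshold, with a median of 0.20. That list did not hold ndufa4a and ndufa4b, although NDUFA4 is now assigned to complex IV. The complex I list held ndufa4a, so the complex I counts above include it. ndufa4a read 10.91, 10.82 and 10.87 in DA brains and 10.27 and 10.56 in control brains (log2 0.45), and ndufs4 of complex I was also at 0.45. atp5mc3a, a subunit of the rotating ring of ATP synthase, read 12.37, 12.40 and 12.51 in DA brains and 12.11 and 12.20 in control brains (log2 0.28), above all 8 controls. No other ATP synthase gene and no complex IV gene had DA arrays above all 8 controls, beside 3.66% of all genes. Among complexes II and III and cytochrome c, sdhc and uqcrc2b alone did. For atp5l, atp5f1d, atp5if1a and cox5ab both 48 h controls lay below all the other controls, and for sdha and cox4i1l above them. Without control replicate 1 the medians were 0.09 for complex I, 0.19 for complexes II and III, 0.17 for ATP synthase and 0.04 for complex IV. Exceptions in direction included cox4i1l at -0.84 and ndufa4b, with 10.23, 10.02 and 10.02 in DA brains and 10.34 and 10.37 in control brains (log2 -0.26).

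Ribosomal genes mostly had higher means in DA brains, beside 55.2% of all genes. Of 59 mitochondrial ribosomal proteins 50 were higher in DA brains, with a median of 0.16, or 0.08 without control replicate 1. An unadjusted p under 0.05 was found for 7 higher and 1 lower ones, beside 3.64% and 1.87% of all genes. mrps26 was at 0.34, mrpl27 at 0.42 and mrpl44 at 0.43, and mrpl47 at -0.31. Of 70 cytosolic ribosomal proteins 59 were higher, with a median of 0.14, but the median was 0.01 without control replicate 1. At that threshold 4 were higher and none lower, not far from the shares of all genes. Glycolysis had 18 of 29 genes higher, with a median of 0.10, or 0.00 without control replicate 1. At that threshold it had 1 gene, tpi1a, which is near the share of all genes. Against control replicate 2 alone the cytosolic ribosomal and glycolytic medians were thus near 0, while that of fatty acid oxidation was 0.14. Those of complexes I and IV also fell without control replicate 1, as given above.

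**Figure D2:**
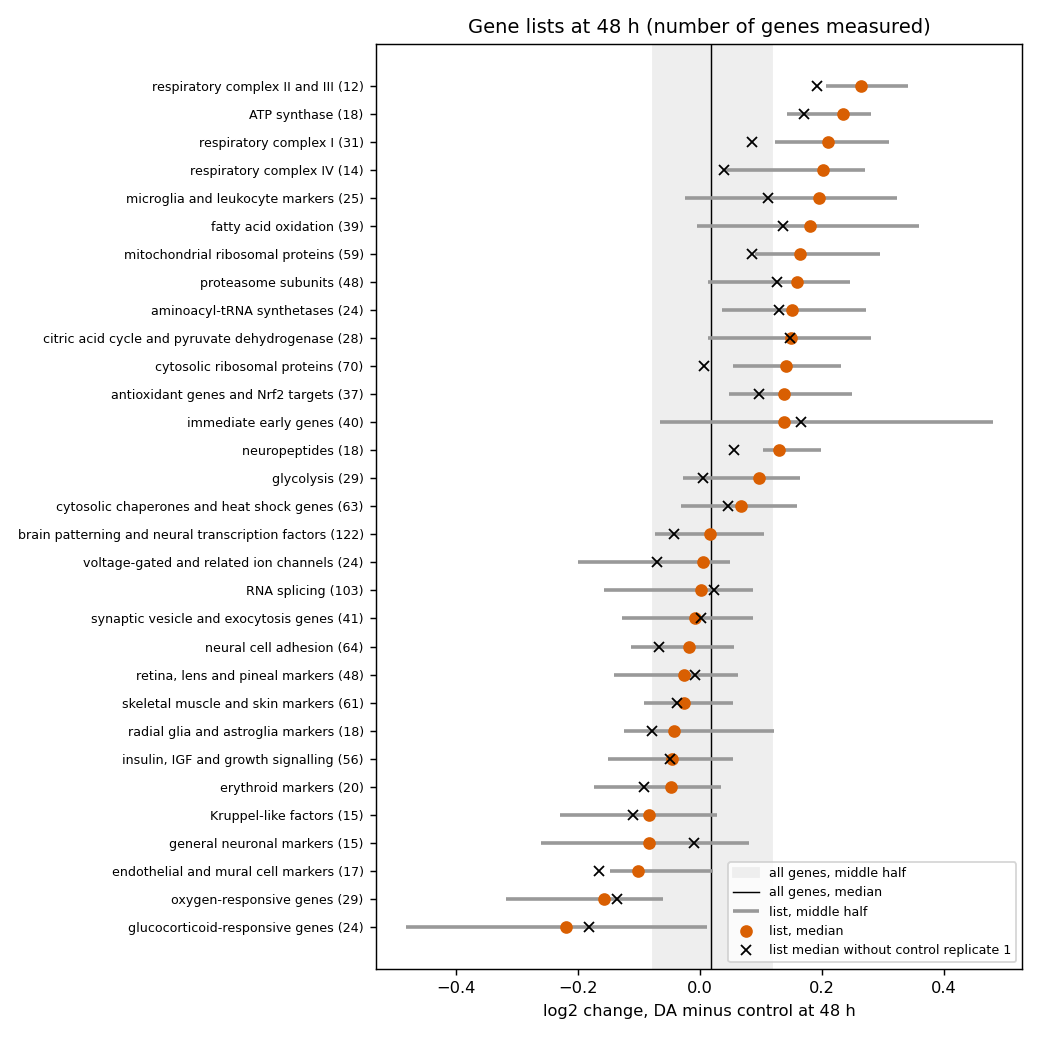
Circles are the median log2 change (DA minus control at 48 h) of each gene list, bars run from the lower to the upper quartile, crosses are the medians without control replicate 1, and the grey band and line are the quartiles and median of all genes. The respiratory and fatty acid oxidation lists had medians of 0.18 to 0.26 and the oxygen-responsive and glucocorticoid-responsive lists -0.16 and -0.22. Without control replicate 1 the cytosolic ribosomal list moved to 0.01, and the complex I and complex IV lists also moved to lower medians.

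Oxygen-responsive genes were mostly lower in DA brains. They are induced through hypoxia-inducible factors and include prolyl hydroxylases, regulators of glycolysis and cox4i1l. Of 29 measured, 23 were lower and 6 higher in DA brains, with a median of -0.16, and 8 were lower and none higher at an unadjusted p under 0.05, beside 1.87% lower of all genes. On 14 every DA array lay below both 48 h controls, beside 12.0% of all genes. The median was -0.14 without control replicate 1 and -0.24 without control replicate 2.

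egln3 read 4.99, 4.84 and 4.99 in DA brains, against 5.76 and 5.97 in control brains, a 1.89-fold difference (log2 -0.92 ± 0.16 SE, adjusted p = 0.335, limma). It passed in a pair of alternative fits, with array weights (adjusted p = 0.0439) and with spike-in signal as a covariate (log2 -1.25, adjusted p = 0.0203). The 6 controls of 24 h and 168 h read 4.68 to 5.21, so the DA arrays lay within the range of the other controls and the 48 h controls lay above it. cox4i1l read 7.31, 7.11 and 7.32 in DA brains and 7.87 and 8.31 in control brains (log2 -0.84 ± 0.15 SE, adjusted p = 0.335), with 6.98 to 7.52 in the other controls. Another subunit IV gene, cox4i2 of the complex IV list, was at 0.0 with overlapping arrays. p4ha1b, a collagen prolyl hydroxylase, read 4.91, 4.95 and 4.92 in DA brains and 5.93 and 5.56 in control brains (log2 -0.82 ± 0.19 SE, adjusted p = 0.537), with 4.75 to 5.11 in the other controls. In DA brains egln3 and p4ha1b read near the blank probe sets, which averaged 4.96 to 5.04 on those arrays. Their folds were thus measured from near the floor.

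For hif1al2 and pfkfb3 the 48 h controls also lay above the other controls, but the DA arrays did not all fall within their range. hif1al2, an alpha subunit of a hypoxia-inducible factor, read 6.50, 6.42 and 7.19 in DA brains, against 7.5 and 7.29 in control brains, with 6.47 to 7.09 in the other controls. pfkfb3, a kinase that raises the flow through glycolysis, read 9.72, 9.59 and 9.59 in DA brains, against 10.05 and 9.86 in control brains, with 9.27 to 9.50 in the other controls, so all 3 DA arrays lay between the 2 sets of controls. On 7 of the 29 genes both 48 h controls lay above the DA arrays and above all 6 other controls, beside 1.73% of all genes. Only p4ha2, with 6.32, 6.40 and 6.32 in DA brains and 7.0 and 6.72 in control brains (log2 -0.51, adjusted p = 0.537), had DA arrays below all 8 controls, the other controls being at 6.45 to 6.66. The deviation of the whole list from the 17-array mean was -0.03, -0.10 and -0.02 in DA brains, against 0.28 and 0.09 in 48 h controls and -0.19 to 0.05 in the other controls. Against all 8 controls the list median was -0.05, egln3 was at -0.24 (adjusted p = 0.728) and cox4i1l at -0.18 (adjusted p = 0.811).

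**Figure D3:**
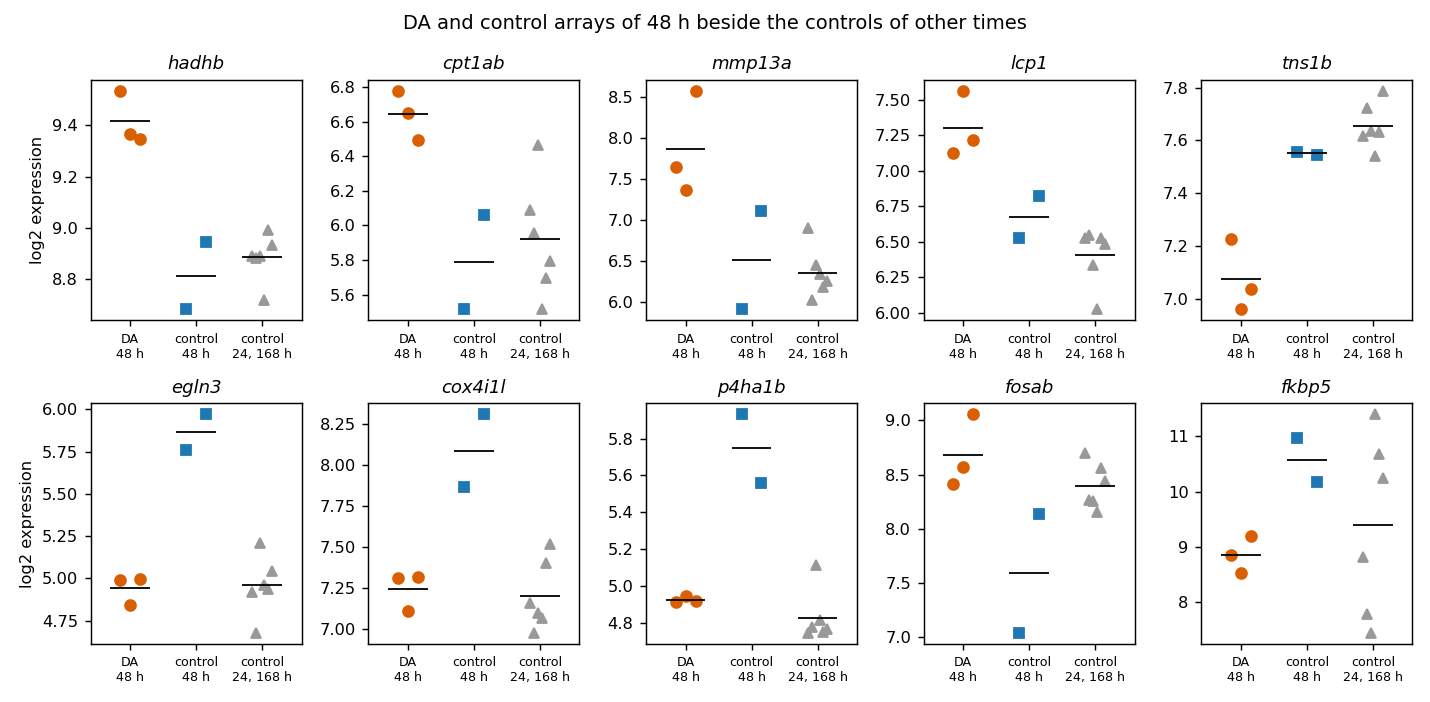
Log2 expression of 10 genes on the 3 DA arrays of 48 h (circles), the 2 controls of 48 h (squares) and the 6 controls of 24 h and 168 h (triangles), with the mean of each set as a line. hadhb, cpt1ab, mmp13a and lcp1 stood above and tns1b below every control array in DA brains, whereas for egln3, cox4i1l and p4ha1b the 48 h controls stood above both the DA arrays and the other controls.

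Immediate early genes, which encode transcription factors and signalling brakes switched on within minutes of neuronal firing, were mostly higher in DA brains. Of 40 measured, 27 were higher and 13 lower, with a median of 0.14. An unadjusted p under 0.05 was found for 12 higher and 1 lower ones, beside 3.64% and 1.87% of all genes. fosab, a zebrafish c-Fos gene, read 8.41, 8.57 and 9.06 in DA brains, against 7.04 and 8.14 in control brains, a 2.13-fold difference (log2 1.09 ± 0.30 SE, adjusted p = 0.726, limma). Its remaining 3 probe sets were at 0.96, 0.12 and 0.20. Control replicate 1 decided much of the fosab value, which was 0.54 without that array and 1.64 without control replicate 2. The controls of other times read 8.15 to 8.70 for fosab, a range that holds DA replicates 1 and 2 and lies above both 48 h controls.

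junbb, a partner of Fos proteins, read 8.89, 9.03 and 8.92 in DA brains and 7.95 and 8.49 in control brains (log2 0.72 ± 0.19 SE, adjusted p = 0.668). nr4a1, an orphan nuclear receptor, read 6.36, 6.69 and 6.59 in DA brains and 5.67 and 5.91 in control brains (log2 0.75), and ier2a was at 0.83, ier5 at 0.49 and egr4 at 0.85, whose DA and control arrays overlapped. Without control replicate 1 junbb was at 0.45, ier2a at 0.53 and egr4 at 0.24. For fosab, ier5, nr4a1 and ier2a both 48 h controls lay below all 6 other controls, which 5 of the 40 genes did with the DA arrays above, beside 1.72% of all genes. egr2a, with 6.26, 6.33 and 6.32 in DA brains, against 5.65 and 5.99 in control brains (log2 0.48), was 1 of only 2 genes of the list whose DA arrays stood above all 8 controls. egr1, which is followed as a marker of recent activity, read 7.64, 7.13 and 7.11 in DA brains and 6.34 and 7.07 in control brains (log2 0.59, or 0.22 without control replicate 1), and its other probe set, which can bind several transcripts, was at -0.08. Of the 13 lower members fosl1b, at -0.27, was the 1 at an unadjusted p under 0.05. The deviation of the list was 0.00, 0.08 and 0.08 in DA brains, against -0.10 and -0.07 in 48 h controls and -0.16 to 0.18 in the other controls, so the DA arrays lay within the range of controls.

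**Figure D4:**
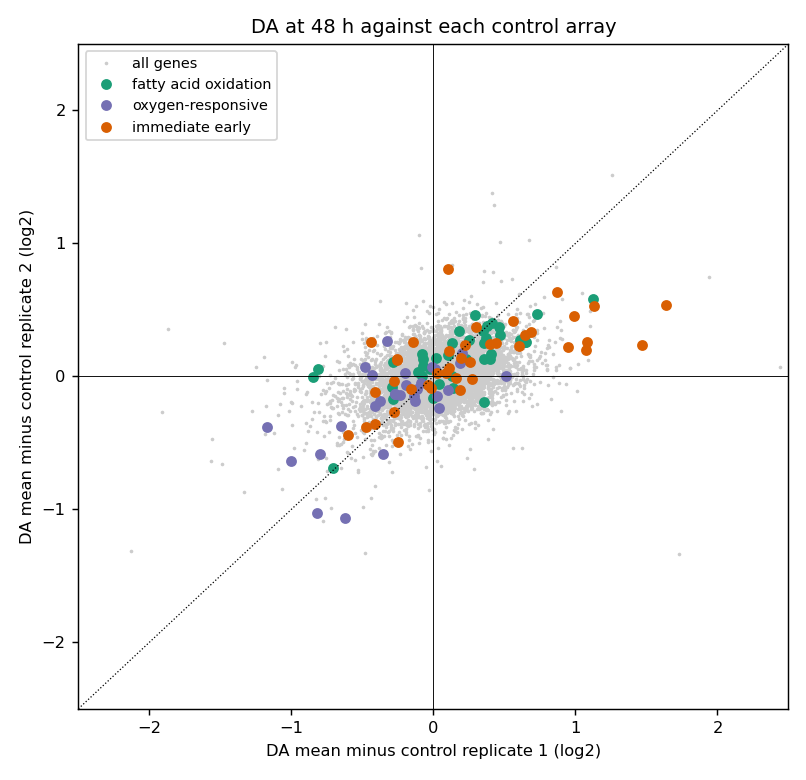
For each of 8793 genes the mean of the DA arrays minus control replicate 1 (horizontal axis) is plotted against the same mean minus control replicate 2 (vertical axis), in log2 units, with fatty acid oxidation, oxygen-responsive and immediate early genes coloured and equality as a dotted line. Of the 8793 genes 59.6% had the same sign against each control; several immediate early genes lay far right of the line, at larger differences from control replicate 1.

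Glucocorticoid-responsive genes, which follow the stress hormone cortisol, were mostly lower in DA brains but varied widely among controls. Of 24 measured, 17 were lower and 7 higher, with a median of -0.22, and 6 were lower and none higher at an unadjusted p under 0.05, beside 1.87% lower of all genes. fkbp5, a chaperone that dampens the glucocorticoid receptor, read 8.84, 8.52 and 9.19 in DA brains, against 10.98 and 10.16 in control brains, a value 3.30-fold lower in DA brains (log2 -1.72 ± 0.49 SE, adjusted p = 0.763). The other 6 controls ran from 7.44 to 11.40, which spans both 48 h groups. klf9, a transcription factor under direct control of the receptor, read 9.85, 9.45 and 9.66 in DA brains and 11.21 and 10.12 in control brains (log2 -1.01 ± 0.45 SE), with 8.35 to 11.83 in the other controls. The difference was -0.47 without control replicate 1 and -1.56 without control replicate 2. hsd11b2, which inactivates cortisol, read 5.21, 5.17 and 5.47 in DA brains and 6.40 and 5.70 in control brains (log2 -0.77, adjusted p = 0.668), or -0.42 without control replicate 1. No gene of the list had DA arrays outside the range of the 8 controls.

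Insulin and growth signalling was examined next. Of 56 genes of insulin, insulin-like growth factor (IGF) and growth signalling, 34 were lower and 22 higher, with 7 lower and none higher at an unadjusted p under 0.05, beside 1.87% lower of all genes, and a median of -0.05. foxo3b, a transcription factor held in check by insulin signalling, read 9.89, 9.76 and 9.97 in DA brains and 10.78 and 10.43 in control brains (log2 -0.73 ± 0.22 SE, adjusted p = 0.783), and a dim second probe set was at -0.04. pik3r3a, a regulatory subunit of phosphoinositide 3-kinase, was at -1.07, and igfbp1a, a binding protein of IGFs, at -0.47. igf1 itself read 5.18, 5.04 and 5.15 in DA brains and 5.41 and 5.60 in control brains (log2 -0.39), and its DA arrays lay below all 8 controls. These igf1 values in DA brains were near the level of the blank probe sets. foxo3b and igfbp1a stand on both lists.

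Markers of microglia and other leukocytes were mostly higher in DA brains. Of 25 measured, 17 were higher and 8 lower, with a median of 0.20. At an unadjusted p under 0.05, 4 were higher and none lower, beside 3.64% and 1.87% of all genes. In whole brain RNA, more cells of a type and more RNA per cell cannot be told apart. mmp13a, a collagenase of inflamed tissue, read 7.64, 7.36 and 8.57 in DA brains, against 5.91 and 7.11 in control brains, a 2.54-fold difference (log2 1.34 ± 0.33 SE, adjusted p = 0.623, limma). The difference was 0.74 without control replicate 1 and 1.94 without control replicate 2. lcp1, an actin-bundling protein of leukocytes, read 7.12, 7.56 and 7.21 in DA brains and 6.53 and 6.82 in control brains (log2 0.63 ± 0.17 SE, adjusted p = 0.726). The gelatinase mmp9 read 7.18, 7.35 and 7.72 in DA brains and 6.70 and 7.07 in control brains (log2 0.53), and the lysozyme gene lyz was at 0.62.

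Against the controls of all times the leukocyte markers stood out further. On 10 of the 25 every DA array lay above all 8 controls, and on none below, beside 3.66% and 2.06% of all genes. These 10 were mmp13a, lcp1, mmp9, the galectin gene lgals9l1, the phosphatase ptpn6, the antigen-presentation gene cd74b, the progranulin gene grna, the cathepsin gene ctss2.1, the chemokine receptor cxcr4b and ptprc, the pan-leukocyte CD45 gene. Without control replicate 1 ctss2.1 was at 0.12, cd74b at 0.11 and ptpn6 at 0.12, and with the spike-in covariate ptprc and cxcr4b were at -0.02 and -0.00. For cd74b and grna both 48 h controls also lay above the other controls. Several defining markers did not share the direction: csf1ra, the macrophage growth factor receptor, was at -0.08, spi1b, the myeloid transcription factor, at -0.02, coro1a at -0.03 and the neutrophil peroxidase mpx at -0.10. apoeb and c1qc, which microglia express strongly, were at 0.20 each with overlapping arrays. The deviation of the list was 0.23, 0.47 and 0.24 in DA brains, against 0.03 and 0.15 in 48 h controls and -0.14 to 0.05 in the other controls. Without DA replicate 2 the list median was 0.07.

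Blood and vessel markers had lower means in DA brains for most, but not all, members. Of 20 erythroid markers 13 were lower in DA brains, beside 44.8% of all genes, with a median of -0.05. At an unadjusted p under 0.05, 3 were lower, beside 1.87% of all genes. The anion exchanger slc4a1a read 5.17, 5.01 and 5.28 in DA brains, against 5.76 and 5.73 in control brains, and nt5c2l1 read 7.04, 6.82 and 7.32, against 7.54 and 8.39. For slc4a1a, nt5c2l1 and epb41b both 48 h controls lay above all 6 other controls. The DA values of slc4a1a were near the level of the blank probe sets. The abundant haemoglobin gene hbaa1 read 12.25, 12.26 and 12.79 in DA brains and 12.85 and 12.76 in control brains, and the groups overlapped. Among the higher members, the erythroid marker cahz was at 0.31 and the haemoglobin gene hbba2 at 0.18, both with overlapping arrays. Of 17 endothelial and mural cell markers 12 were lower, with a median of -0.10, or 0.02 among the brighter probe sets. klf2b, a transcription factor induced in endothelium by blood flow, read 5.93, 6.11 and 5.98 in DA brains, against 6.64 and 6.49 in control brains (log2 -0.56 ± 0.10 SE, adjusted p = 0.340), below all 8 controls, while the 48 h controls lay above the other 6, which read 6.17 to 6.37. Its paralog klf2a was at -0.29 and plvapb, a protein of fenestrated endothelium, at -0.30, whereas the endothelial receptor kdrl was at 0.05 with overlapping arrays, or -0.22 without control replicate 1.

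Transcription factors as a list lay near the background of all genes. Of 122 brain patterning and neural transcription factors 66 were higher and 56 lower, with an unadjusted p under 0.05 for 6 higher and 3 lower ones, beside 3.64% and 1.87% of all genes, and a median of 0.02, the same as for all genes. tbr1b, a T-box factor of excitatory neurons of the pallium, read 9.17, 9.30 and 9.11 in DA brains, against 8.73 and 8.18 in control brains (log2 0.74 ± 0.21 SE, adjusted p = 0.726), with 7.80 to 8.39 in the other controls. neurod6a and neurod6b, which mark the same class of neurons in mammals, were at 0.40 and 0.29. All 3 genes had DA arrays above all 8 controls, though for neurod6a the 48 h controls also lay above the other 6. foxg1b, a forkhead gene of the telencephalon, read 5.58, 5.43 and 6.06 in DA brains, against 7.26 and 6.33 in control brains (log2 -1.10 ± 0.26 SE, adjusted p = 0.537), but the other controls ran from 5.24 to 7.46. sox9b, a factor of radial glia, was at 0.54 and dlx2a, a factor of inhibitory neurons, at 0.42. Of 42 Hox genes, which mark hindbrain and spinal cord, 25 were higher, near the 55.2% of all genes. Past an unadjusted p of 0.05 was hoxb8a alone, also near the shares of all genes. It read 5.30, 5.79 and 5.92 in DA brains and 5.25 and 4.89 in control brains (log2 0.60). These control values were near the level of the blank probe sets, and the brightest of 3 hoxb8a probe sets is given. The share of forebrain and hindbrain tissue in each pool is not recorded in the labels, and its part in these values was not tested.

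Retinoid genes appeared on both sides of the ranking and were grouped after their values were seen. cyp26a1, the P450 that breaks down retinoic acid and is induced by it, read 5.59, 5.62 and 5.85 in DA brains, against 6.87 and 6.12 in control brains (log2 -0.81 ± 0.18 SE, adjusted p = 0.537). Without control replicate 2 it was at -1.18 and passed (adjusted p = 0.0343). Without control replicate 1 it was at -0.43, and against all 8 controls at -0.16 (adjusted p = 0.854). The other 6 controls read 5.21 to 5.89, around the DA values. The cyp26a1 paralogs cyp26b1 and cyp26c1 were at -0.21 and -0.11, with overlapping arrays. dhrs3a, which turns retinal back to retinol, read 5.17, 5.23 and 5.23 in DA brains and 5.98 and 5.50 in control brains (log2 -0.53, adjusted p = 0.537), just below the other controls at 5.27 to 5.50, and was at -0.30 without control replicate 1. dhrs9, a retinol dehydrogenase, read 7.40, 7.46 and 7.60 in DA brains and 7.08 and 7.11 in control brains (log2 0.39, adjusted p = 0.668), above all 8 controls.

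The measured genes of AMPA and kainate receptors, the classes on which DA acts, and of an NMDA receptor subunit showed no difference at the thresholds used. Of 5 ionotropic glutamate receptor genes measured, 2 were higher and 3 lower, and none was at an unadjusted p under 0.05. grin1a, the obligate NMDA receptor subunit, read 11.45, 11.40 and 11.38 in DA brains, against 11.62 and 11.38 in control brains (log2 -0.09 ± 0.16 SE). The AMPA receptor gene gria2b read 9.25, 8.85 and 9.09 in DA brains and 9.06 and 8.95 in control brains (log2 0.06 ± 0.31 SE), and its paralog gria2a was at -0.18 ± 0.38 SE. The kainate receptor genes grik6 and grik1a were at -0.25 ± 0.15 SE and 0.03 ± 0.10 SE. Of 8 genes of glutamate uptake, glutamate and glutamine metabolism and synaptic scaffolds, none was at that threshold. slc1a2b, the main astroglial glutamate transporter, read 13.75, 13.63 and 13.75 in DA brains and 13.71 and 13.69 in control brains.

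On the inhibitory side, gabrb2a, a subunit of the GABA-A receptor, read 6.82, 6.74 and 6.79 in DA brains, against 7.68 and 7.29 in control brains (log2 -0.70 ± 0.22 SE, adjusted p = 0.837), below all 8 controls. It was the 1 gene of 13 on the list of GABA genes and glycine receptor genes at an unadjusted p under 0.05. Beside each list of this paragraph, 3.64% of all genes were higher and 1.87% lower at that threshold, and 55.2% had a higher mean. Of 41 synaptic vesicle and exocytosis genes 17 were higher and 24 lower. Those at that threshold were syn1, the vesicle phosphoprotein synapsin, at 0.31, the synuclein gene sncgb at -0.67 and the vesicle protein gene ica1 at -0.71. Of 18 neuropeptide genes 14 were higher, with a median of 0.13. Those at that threshold were gnrh3 at 0.53 and gnrh2 at 0.43, each read by a probe set that can bind several transcripts. Arrays overlapped for gnrh2, which was at 0.05 without control replicate 1. General neuronal markers had a median of -0.08 over 15 genes, or -0.01 without control replicate 1, with elavl4, a neuronal RNA-binding protein, at -0.50 and below all 8 controls. Glial markers had a median of -0.04 over 18 genes. gfap, the intermediate filament of reactive astroglia and radial glia, read 7.38, 7.32 and 7.30 in DA brains, against 6.95 and 7.42 in control brains (log2 0.15 ± 0.16 SE), with overlapping groups and a value of -0.08 without control replicate 1.

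Protein quality control and antioxidant genes mostly had higher means in DA brains, beside 55.2% of all genes. Of 48 proteasome genes 37 were higher and 11 lower, with 5 higher and none lower at an unadjusted p under 0.05, beside 3.64% higher of all genes. On 20 every DA array lay above both 48 h controls, beside 15.8% of all genes, with a median of 0.16, or 0.13 without control replicate 1. psmd13, a subunit of the proteasome lid, read 9.19, 9.20 and 9.23 in DA brains and 8.64 and 8.86 in control brains (log2 0.46). Of 37 antioxidant genes and targets of the oxidant sensor Nrf2, 32 were higher and 5 lower, with 3 higher and none lower at that threshold and a median of 0.14. txnrd3, a thioredoxin reductase, read 9.77, 9.72 and 9.86 in DA brains and 9.20 and 9.49 in control brains (log2 0.44 ± 0.13 SE, adjusted p = 0.783), and gsr, glutathione reductase, was at 0.26, both above all 8 controls. Without control replicate 1 txnrd3 was at 0.30 and gsr at 0.14. Of 24 aminoacyl-tRNA synthetase genes 20 were higher, with a median of 0.15, led by eef1e1 at 0.39, a scaffold of the synthetase complex. Chaperones had a median of 0.07 over 63 genes, with the chaperonin subunit cct3 at 0.39 and the heat shock factor hsf2 at -0.64.

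Other functions lay mostly near the background of all genes. RNA splicing had 52 of 103 genes higher, with an unadjusted p under 0.05 for 3 higher and 4 lower ones and a median of 0.00. Beside each list of this paragraph, 3.64% of all genes were higher and 1.87% lower at that threshold, and 55.2% had a higher mean. The 4 lower splicing genes were a larger share of their list than that of all genes. Chromatin genes had 34 of 70 higher, with kdm1a, a histone demethylase, at -0.62 and the deacetylase gene hdac8 at 0.37. Of 62 cytokine, interferon and innate immune genes 31 were higher and 31 lower, and the only member at that threshold was the chemokine cxcl12b at -0.59. Voltage-gated and related channels had none of 24 at that threshold. Retina, lens and pineal markers had a median of -0.03 over 48 genes and muscle and skin markers -0.03 over 61, with 1 and 0 genes at that threshold.

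The 24 h and 168 h comparisons each had their own controls, and the 48 h difference was set against the mean of theirs. No probe set passed for this difference of differences (limma, smallest adjusted p = 0.928, with 394 probe sets, or 2.54%, more positive and 208, or 1.34%, more negative at an unadjusted p under 0.05). cpt1ab was at 0.85 at 48 h, -0.27 at 24 h and -0.26 at 168 h, a difference of 1.12 (adjusted p = 0.928). hadhb was at 0.60, 0.07 and -0.16 in the same order of times, a difference of 0.65 (adjusted p = 0.928). fkbp5 was at -1.72 at 48 h, 1.41 at 24 h and 0.06 at 168 h, a difference of -2.45 (adjusted p = 1.0). List medians for complex I were 0.21 at 48 h, -0.22 at 24 h and -0.04 at 168 h, and those for fatty acid oxidation 0.18, -0.05 and -0.01. DA replicate 1 of 24 h, the array with the highest blank mean, is part of every 24 h value given here.

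With the 8 controls of all times taken as 1 group, which sets 48 h DA brains against controls of 3 times, 7 probe sets passed at an adjusted p under 0.05 (0.0452% of those tested), and 6.9% were higher and 4.53% lower at the unadjusted threshold. In that fit mmp13a was 2.75-fold higher (log2 1.46 ± 0.24 SE, adjusted p = 0.0333, limma), tbr1b 1.94-fold (adjusted p = 0.0333), lcp1 1.77-fold (adjusted p = 0.0333) and hadhb 1.46-fold higher (adjusted p = 0.0333). tns1b was 1.47-fold lower (log2 -0.56 ± 0.07 SE, adjusted p = 0.0124), cul5b 1.86-fold lower (adjusted p = 0.0368) and c1qtnf4, a secreted protein of the C1q and tumour necrosis factor family, 2.02-fold lower (adjusted p = 0.0333). c1qtnf4 read 9.0, 8.07 and 8.64 in DA brains, against 9.35 and 9.66 in 48 h control brains and 9.32 to 10.02 in the other controls, and was named after its values were seen. Among the genes at an unadjusted p under 0.05 in the 48 h comparison, 118 of the 320 higher ones (36.9%) and 38 of the 164 lower ones (23.2%) had DA arrays outside the range of all 8 controls. Of all genes, 3.66% and 2.06% did so. In 38 of the 320 (11.9%) and 36 of the 164 (22.0%) both 48 h controls lay beyond all 6 other controls, on the side away from the DA arrays. Of all genes, 1.72% and 1.73% did so with DA and 48 h control arrays not overlapping. The 320 and 164 genes were picked by their difference from the 48 h controls. Larger shares among them follow in part from that choice and are no test of DA.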

How the data were processed

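Total RNA of pooled zebrafish brains was hybridised to the 1-colour Affymetrix Zebrafish Genome array. Deposited values are log2 expression, 1 per probe set and array. RMA, oligo and limma are named in the submitters' processing notes, with no versions stated. RMA makes the value distributions of arrays alike, so a change shared by most transcripts is removed. Of 15617 probe sets, 115 manufacturer controls served for quality alone. Symbols came from the platform annotation, updated by Entrez number for 10711 of 10795 probe sets with 1 symbol (135 carried several and 4572 none). Each gene was read by its probe set with the highest mean.

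All 17 arrays were fitted with limma 3.58.1 in R 4.3.3, 1 mean per group and no level filter, with two-sided moderated tests and 11 residual degrees of freedom. The median SE at 48 h was 0.15. The procedure was tested on simulated data with independent noise for each probe set and no array that stood apart. That test therefore does not cover an array such as control replicate 1 of 48 h. Members, the 52 lists, the naming rule and the tests were chosen with earlier results of these data known. The rule named the 12 genes per direction with the smallest p and no overlap of groups, up to 3 genes per list and a fixed set, and further list members and cell type markers were named after their values were seen. From the lists, 53 genes matched by name pattern alone were removed by identity. Ranges against all 8 controls were added after seeing the data. Labels speak of 3 replicates per time point, and 2 control arrays of 48 h were used here. Alternatives were other normalisations, filters, covariates, array weights, pooled controls, the replicate number as a block and leaving out each array.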

Additional observations from a re-analysis of the deposited data

Results flagged for a closer look

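Among 32 genes examined over the 8 control arrays, 3 had a control array of 48 h far from the rest. Chance marks about 1 in 20 groups of values, but most of these genes were named for their difference from the 48 h controls, so that rate does not apply to them. In each case the array was control replicate 1 of 48 h. For atp6v1c1b it was the lowest at 10.30, with the next at 10.51. For fosab it was the lowest at 7.04, with the next at 8.14. For dhrs3a it was the highest at 5.98, with the next at 5.50.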

How the results depend on the processing

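No probe set passed in the comparison as reported. The count was 7 against all 8 controls, 1 with array weights, 1 with the spike-in covariate and 0 to 4 when single arrays were left out, the 4 being without control 48 h replicate 2. At an unadjusted p under 0.05, 405 were higher and 329 lower, which became 868 and 855 on the 48 h arrays alone, 1069 and 703 against all 8 controls, 242 and 205 among the brighter probe sets, 717 and 658 with array weights and 80 and 85 at p under 0.01. With the spike-in covariate the lower count was 511. Leaving out single 48 h arrays gave 124 to 691 higher and 117 to 525 lower. Non-overlapping probe sets with a difference of at least 0.5 numbered 77 higher and 145 lower. With no minimum difference they numbered 2056 and 2173, and leaving out single arrays gave 2852 to 5631 higher and 2886 to 4891 lower. Replicate numbers did not pair arrays at 48 h (correlations of same-numbered deviations -0.01 and 0.01); with a replicate block 0 passed, and 480 and 376 were at an unadjusted p under 0.05.

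Over 205 named genes, 160 by the rule and 45 named after their values were seen, 3183 of 3234 values kept their direction and 51, in 27 genes, reversed. Against all 8 controls mylipa was at 0.15, grik6 0.03, grin1a 0.13, glula 0.05, cdc26 -0.02, cxcl14 0.07, tefa 0.14, per2 0.01, prl -0.00, coro1a 0.19, grik1a -0.03, hbaa1 0.26, pfkfb3 0.09 and spi1b 0.03. With the spike-in covariate gria2a was at 0.03, glula 0.02, homer3b -0.22, scn8aa 0.09, gnb3b 0.04, gfap -0.08, atp2b1a 0.14, csf1ra 0.04, cxcr4b -0.00, grik1a -0.03, kdrl -0.04, mpx 0.53, ptprc -0.02 and spi1b 0.08. With the replicate block grik1a was at -0.01, mpx 0.02 and spi1b 0.01, and slc1a2b was at -0.00 with median centring. Leaving out single 48 h arrays gave -0.22 to 0.03 for grin1a, -0.01 to 0.21 for prl, -0.08 to 0.38 for gfap, -0.35 to 0.11 for gria2a, -0.04 to 0.17 for gria2b, -0.24 to 0.18 for coro1a, -0.01 to 0.09 for grik1a, -0.22 to 0.32 for kdrl, -0.01 to 0.05 for slc1a2b and -0.09 to 0.06 for spi1b. With the GAPDH covariate gria2b was at -0.07, kdrl -0.06 and slc1a2b -0.01. The endothelial list was at 0.02 among the brighter probe sets. The cause of these changes was not tested. With 5 arrays of 48 h, a median SE of 0.15 and 1 control array apart, small differences could not be resolved.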

Other observations

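Calcium handling genes were not described above. atp2b4, a plasma membrane pump that expels calcium from cells, read 10.95, 10.73 and 10.89 in DA brains, against 11.43 and 11.47 in control brains (log2 -0.60 ± 0.37 SE). The DA difference of atp2b4 was -1.42 at 24 h and -0.54 at 168 h. atp2b3a was at -0.30, and for atp2b4 and atp2b3a the DA arrays of 48 h lay below all 8 controls. atp2b1a was at -0.36, also below all 8 controls, but at -0.21 without control replicate 1 and 0.14 with the spike-in covariate. atp2b2 was at -0.31, with every DA array below both 48 h controls. atp2b4 and atp2b1a each have 3 probe sets, of which the brightest is given. The whole list of calcium pumps, sensors and kinases had a median of -0.02 over 45 genes. The calcium-binding protein gene calb2b was at 0.40 with overlapping arrays and pvalb8 at -0.50, both at an unadjusted p under 0.05. Of all genes, 3.64% were higher and 1.87% lower at that threshold, and 2.06% had DA arrays below all 8 controls. The atp2b pumps were singled out after their values were seen. Of the atp2b pumps named, atp2b2 alone was at an unadjusted p under 0.05, and none passed at an adjusted p under 0.05. The other calcium pumps of the list, atp2a1, atp2a2a, atp2a2b and atp2a1l, were at 0.14, 0.12, -0.02 and -0.04, with overlapping arrays.

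The 34 genes of the clock list had a median of -0.02. At an unadjusted p under 0.05 stood nfil3-6 alone, near the shares of all genes, 3.64% higher and 1.87% lower. nfil3-6, a repressor tied to the circadian clock, read 10.70, 10.71 and 11.11 in DA brains, against 11.82 and 11.38 in control brains (log2 -0.76). For tefa and per2, which follow light and the clock, both 48 h controls lay above all 6 other controls. The labels used here give no hour of collection.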
